A study of Homo sapiens with 6 samples.

Results

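Adenosine and inosine outside the cell are made, sensed and taken up by a small set of proteins, and 10 human genes that encode them were followed here out of 60671 annotated genes in the series. The members were chosen by name, as rows of the expression matrix that carry the listed symbols, and all 10 were found. They comprise 2 ectoenzymes (NT5E and ENTPD1), 4 nucleoside transporters (SLC29A1, SLC29A2, SLC29A3 and SLC28A3), 3 adenosine receptors (ADORA1, ADORA2A and ADORA2B) and adenosine kinase (ADK). RNA had been sequenced from xenografts of wild-type MDA-MB-231 cells (a line from a human breast cancer of the triple-negative type) grown orthotopically in the mammary fat pads of immunodeficient female NSG mice injected at an age of 6 to 8 weeks. Samples came from the core of the tumors (TC, n = 3) or from their margin (TM, n = 3), and neither group received a drug or carried a further genetic change. NSG mice lack T, B and NK cells but keep macrophages, endothelium and stroma, and the tumors of both groups derive from the same cell line. There were 3 samples per group, and the study's figure legend for this sequencing gives 3 mice per group. Whether a core and a margin with the same replicate number came from the same mouse was not given in the sources used here.

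In the usual scheme, ATP that leaves cells is cut to AMP by ENTPD1 (CD39), and NT5E (CD73), a membrane-anchored nucleotidase on the cell surface, removes the last phosphate to give adenosine; NT5E also acts on IMP and gives inosine. Adenosine binds G protein-coupled receptors, and both nucleosides are carried across membranes by equilibrative transporters of the SLC29 family or, with sodium, by concentrative transporters of the SLC28 family. Inside the cell ADK phosphorylates adenosine back to AMP, whereas deamination by ADA yields inosine. Among these genes NT5E and ADORA2B are known targets of the hypoxia-inducible factor (HIF), and SLC29A1 is known to be repressed in hypoxic cells. The study asked how inosine builds up and acts in the nutrient-poor core. As a possible route it tested the receptors ADORA1 and ADORA2A, but not ADORA2B. It reported that inosine still activated the mTORC1 signaling pathway when these were knocked down.

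The values are TPM (transcripts per 1000000 transcripts), an abundance per transcript length, so levels of different genes can be compared. Sequencing depth is unknown, and the number of annotated genes above 0 TPM ranged from 21063 to 21942 in TC and from 22678 to 23216 in TM. The labelled cell line was checked by 10 markers, whose TPM summed to 6990 to 7762 in TC and 6556 to 8299 in TM. VIM lay between 3797 and 5283 TPM, CD44 between 197 and 267 and EGFR between 42.1 and 62.8, whereas the hormone receptor genes ESR1 and PGR reached at most 0.13 and 0.22 TPM. Libraries of the margin differed among themselves in marker genes of muscle and stroma. The host was mouse, but reads were aligned to the human genome, and removal of mouse reads was not described. The marker sums therefore cannot be read as amounts of host cells. The summed TPM of 14 skeletal muscle markers was 8.68 to 12.3 in TC, but 272, 690 and 6.36 in TM replicates 1, 2 and 3, and that of 12 fibroblast markers was 88.2 to 246 in TC and 508, 1032 and 118 in TM. For 10 endothelial markers the sum was 29.1 to 35.1 in TC and 31.8 to 45.1 in TM (PECAM1 at 0.14 to 1.28 TPM), and for 12 macrophage markers it was 88.3 to 101 and 92.5 to 104, mostly CD68, while 4 of the 12 were at 0 in every sample. The share of TPM in mitochondrially encoded genes was 6.09% to 8.84% in TC and 9.24% to 11.1% in TM, without overlap, and its part in the results was not tested; without those genes the log2 difference of SLC29A1 was -0.48 and that of NT5E 0.12. The 6 adipocyte markers summed to at most 1.09 TPM and the 6 erythroid markers to at most 6.93. TM replicate 3 correlated less with the other margin samples (0.942 and 0.951 across genes) than these did with each other (0.968). In bulk tissue, fewer cells of a type and less RNA per cell cannot be told apart.

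First, the levels were ordered. NT5E was by far the most abundant member, at a mean of 488 TPM over all samples, which placed it at rank 252 of the annotated genes. In every sample it exceeded the next member, ADK (mean 67.7 TPM), by more than 5 times, and its lowest value (419.9 TPM) lay far above the highest value of ADK (80.6 TPM). ADK and SLC29A1 (mean 64.3 TPM) could not be ordered, because ADK was higher in 3 of 6 samples. A middle tier held ADORA2B, SLC29A3 and SLC29A2, with means of 12.01, 8.59 and 7.80 TPM. ADORA2B exceeded SLC29A3 in all 6 samples, although their ranges overlapped at about 10.1 TPM, and SLC29A3 exceeded SLC29A2 in 5 of 6. The lowest tier held ADORA1 (mean 1.67 TPM), ENTPD1 (1.13 TPM) and ADORA2A (0.678 TPM), whose ranges overlapped from one to the next, and SLC28A3, a concentrative transporter, was at 0.01 to 0.14 TPM. Thus RNA for the surface enzyme that makes adenosine from AMP was abundant in these tumors, whereas RNA for the classical enzyme upstream of it was near 1 TPM. Among ectoenzymes outside the 10 members, ENPP1 averaged 23.5 TPM in TC and 18.5 TPM in TM, so ENTPD1 alone does not describe the upstream step.

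**Figure D1:**
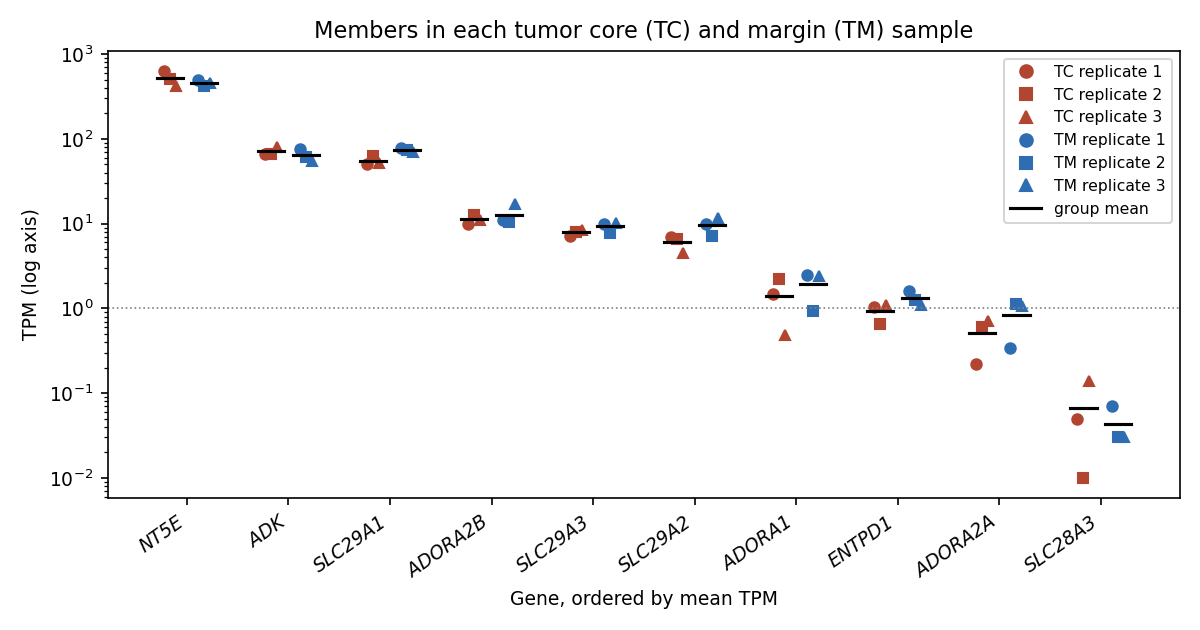
TPM of the 10 members (log axis) in each TC sample (red) and TM sample (blue), ordered by mean TPM, with black lines for group means and a dotted line at 1 TPM. NT5E stands alone at 419.9 TPM or more in all 6 samples, and SLC29A1 and SLC29A2 are the members whose TC values all lie below their TM values.

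TC was then compared with TM by limma on log2(TPM + 1) over the 13861 genes that reached 1 TPM in 3 or more samples. Of the 10 members 8 passed this filter, and ADORA2A and SLC28A3 did not. At an adjusted p-value under 0.05, 0 of the 8 were called (smallest limma adjusted p = 0.175), against 0.137% of all tested genes. At an unadjusted p-value under 0.05, 2 members were lower in TC, the equilibrative transporters SLC29A1 and SLC29A2, and 0 were higher; across all tested genes 14.2% were lower and 1.93% higher by this measure. The same 2 members had every TC value below every TM value, as had 18.9% of all tested genes, and 0 had every TC value above, against 3.28% of all tested genes. In all, 6 of the 8 differences were below 0 and 2 (NT5E and ADK) were above, with a median of -0.24 on the log2 scale beside -0.14 for all tested genes. With 8 genes tested, 2 is near what these shares would give, and these counts do not set the members apart from other genes.

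SLC29A1 (ENT1; ENSG00000112759), the main equilibrative nucleoside transporter of the plasma membrane, lies on chromosome 6 (44219505 to 44234151, plus strand; GENCODE v29, GRCh38). Levels were 50.0, 62.3 and 52.1 TPM for replicates 1, 2 and 3 of the core and 77.3, 73.4 and 71.0 TPM for those of the margin. All TC samples were thus below all TM samples. TC averaged 54.8 ± 6.54 TPM and TM 73.9 ± 3.22 (SD, n = 3), so that TC was at 0.742 times the TM level on the TPM + 1 scale (log2 difference -0.43, SE 0.14, 95% interval -0.74 to -0.12, limma unadjusted p = 0.0124, limma adjusted p = 0.175). An exact two-sided permutation test gave p = 0.1, the smallest that 3 samples against 3 allow. The difference was -0.37 to -0.52 when each sample was left out in turn. It was -0.37 with TM replicates 1 and 2, the libraries with the highest muscle and fibroblast marker sums, both removed.

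SLC29A2 (ENT2; ENSG00000174669; chromosome 11, 66362521 to 66372214, minus strand), a second plasma membrane transporter that also carries nucleobases, was at 6.88, 6.59 and 4.53 TPM across the core and 9.91, 7.15 and 11.8 across the margin. Here the groups nearly met, since TC replicate 1 and TM replicate 2 differed by less than the spread in either group. The means were 6.0 ± 1.28 and 9.60 ± 2.32 TPM (SD, n = 3; log2 difference -0.59, SE 0.25, 95% interval -1.17 to -0.015, limma unadjusted p = 0.0455, limma adjusted p = 0.298, exact permutation p = 0.1). An unadjusted p-value under 0.05 was kept without TC replicate 1 or TM replicate 2, but was lost without each of the other 4 samples. An antisense gene that overlaps SLC29A2, ENSG00000255468, was listed at 3.20, 3.11 and 3.43 TPM across the core and 2.34, 1.93 and 2.30 across the margin. Its TC values all lay above its TM values, as in 3.28% of all tested genes, and no test is given for it. Whether the counting used strand was not given in the sources used here, so its reads may not be fully separate from those of SLC29A2. SLC29A3 (ENT3; ENSG00000198246; chromosome 10, 71319258 to 71381423, plus strand), which serves lysosomes and mitochondria rather than the cell surface, was at 7.20, 8.01 and 8.38 TPM across the core and 10.0, 7.83 and 10.1 across the margin. TM replicate 2 lay among the TC samples, and the difference of -0.21 (SE 0.20, 95% interval -0.67 to 0.24, limma adjusted p = 0.658) was about as large as its error and was -0.32 without TM replicate 2.

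Summed over the 3 equilibrative transporters, TPM was 64.1, 76.9 and 65.0 for the core and 97.3, 88.3 and 92.8 for the margin. SLC29A1 made up 76.4% to 83.0% of this sum in every sample, so the pool was mainly that gene in both zones, and its share was 78.0%, 81.0% and 80.2% in TC against 79.5%, 83.0% and 76.4% in TM. The shares overlapped between the groups, as did those of SLC29A2 (6.96% to 10.7% in TC and 8.09% to 12.7% in TM). SLC28A3 (CNT3; ENSG00000197506; chromosome 9, 84275457 to 84340683, minus strand) was at 0.05, 0.01 and 0.14 TPM across the core and 0.07, 0.03 and 0.03 across the margin and was not tested. The other concentrative transporters, SLC28A1 and SLC28A2, reached at most 0.03 and 0.20 TPM, so transport genes of the sodium-driven kind were near 0 throughout.

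NT5E (ENSG00000135318; chromosome 6, 85449584 to 85495791, plus strand) was at 631, 506 and 424 TPM across the core and 489, 419.9 and 458 across the margin. Although 2 of 3 TC samples lay above every TM sample, TC replicate 3 was within the TM range. The means were 520 ± 104 and 456 ± 34.8 TPM (SD, n = 3, log2 difference 0.17, SE 0.16, 95% interval -0.19 to 0.54, limma adjusted p = 0.659, exact permutation p = 0.4). The difference was 0.025 without TC replicate 1 and 0.31 without TC replicate 3, so its size rested on single libraries. ENTPD1 (ENSG00000138185; chromosome 10, 95711779 to 95869695, plus strand) was at 1.03, 0.66 and 1.10 TPM across the core and 1.61, 1.27 and 1.09 across the margin (log2 difference -0.27, SE 0.24, limma adjusted p = 0.647). Its groups overlapped at about 1.1 TPM. Endothelium and macrophages carry CD39 on their surface, and the endothelial sum given above was also highest in TM replicates 1 and 2. That sum was mostly ESAM (35.6, 32.3 and 26.8 TPM in TM replicates 1, 2 and 3), whereas PECAM1 was highest in TM replicate 3 (1.28 TPM) and CDH5 in TM replicate 2 (2.24 TPM) was below TC replicates 1 and 2 (3.07 and 3.02 TPM). Their part in the ENTPD1 values was not tested. The ENTPD1 difference was -0.16 without TC replicate 2 and -0.12 without TM replicates 1 and 2. An antisense gene within the same locus, ENTPD1-AS1, was more abundant than ENTPD1, and although the study's methods name an orientation mode for the alignment, whether the counting used strand was not given in the sources used here. It was at 8.06, 5.29 and 6.88 TPM across the core and 14.4, 8.74 and 6.93 across the margin.

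Among the receptors, ADORA2B (ENSG00000170425; chromosome 17, 15944917 to 15975746, plus strand), the low-affinity receptor that couples to Gs, led in every sample. It was at 10.0, 12.7 and 11.1 TPM across the core and 11.04, 10.4 and 16.9 across the margin, and took 81.6% to 90.3% of the TPM of the 3 receptors in TC and 79.8% to 83.5% in TM. TM replicate 3 was above all other values. The log2 difference was -0.14 (SE 0.23, 95% interval -0.66 to 0.37, limma adjusted p = 0.815) and became 0.059 without TM replicate 3. ADORA1 (ENSG00000163485; chromosome 1, 203090654 to 203167405, plus strand), which couples to Gi, scattered widely, at 1.48, 2.25 and 0.48 TPM across the core and 2.46, 0.93 and 2.41 across the margin (log2 difference -0.31, SE 0.37, limma adjusted p = 0.748). Leaving out TC replicate 3 removed this difference (0.0023). ADORA2A (ENSG00000128271; chromosome 22, 24417879 to 24442360, plus strand), the Gs-coupled receptor best known from immune cells, was at 0.22, 0.60 and 0.71 TPM across the core and 0.34, 1.12 and 1.08 across the margin, too low to test. Reads of ADORA2A can be shared with the readthrough gene SPECC1L-ADORA2A (at most 0.12 TPM) and, at the same place on the other strand, ADORA2A-AS1 (at most 0.13 TPM). The remaining adenosine receptor gene, ADORA3, was listed at 0.04 TPM in TC replicate 1 and at 0 in the other samples.

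ADK (ENSG00000156110; chromosome 10, 74151185 to 74709303, plus strand) was at 66.3, 66.5 and 80.6 TPM across the core and 76.8, 60.9 and 55.3 across the margin. TC replicate 3 was the highest, but TM replicate 1 exceeded the other TC samples. The log2 difference was 0.15 (SE 0.16, 95% interval -0.22 to 0.52, limma adjusted p = 0.714). It was 0.060 without TC replicate 3, 0.051 without TM replicate 3, 0.28 without TM replicate 1 and 0.35 without TM replicates 1 and 2.

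These differences depended on how the samples were scaled. As deposited, all tested genes had a median difference of -0.14, and it was 0.049 after median-of-ratios rescaling, in which each sample is divided by the median ratio of its genes to their geometric means, and 0.024 after quantile normalization. Relative to the median of all genes, the deposited values placed SLC29A2 at -0.46, SLC29A1 at -0.29, ADORA1 at -0.18, ENTPD1 at -0.13, SLC29A3 at -0.078, ADORA2B at -0.0078, ADK at 0.29 and NT5E at 0.31. After median-of-ratios rescaling SLC29A1 was at -0.22 (limma unadjusted p = 0.178) and SLC29A2 at -0.41 (limma unadjusted p = 0.111), so both kept their direction but not an unadjusted p-value under 0.05. NT5E was then the 1 member at that threshold, at 0.38 (SE 0.14, 95% interval 0.052 to 0.72, limma unadjusted p = 0.0284, limma adjusted p = 0.315), with every TC value above every TM value, and ADK was at 0.36 (limma unadjusted p = 0.0720). Across all genes 6.81% were higher and 6.7% lower at that threshold under this scaling. Every TC value was above every TM value in 1426 of all 13861 tested genes under it. After quantile normalization SLC29A1 was the 1 member at an unadjusted p-value under 0.05 (-0.33, limma unadjusted p = 0.0350). ADORA2B turned from -0.14 to 0.050 and 0.069 under these scalings.

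**Figure D2:**
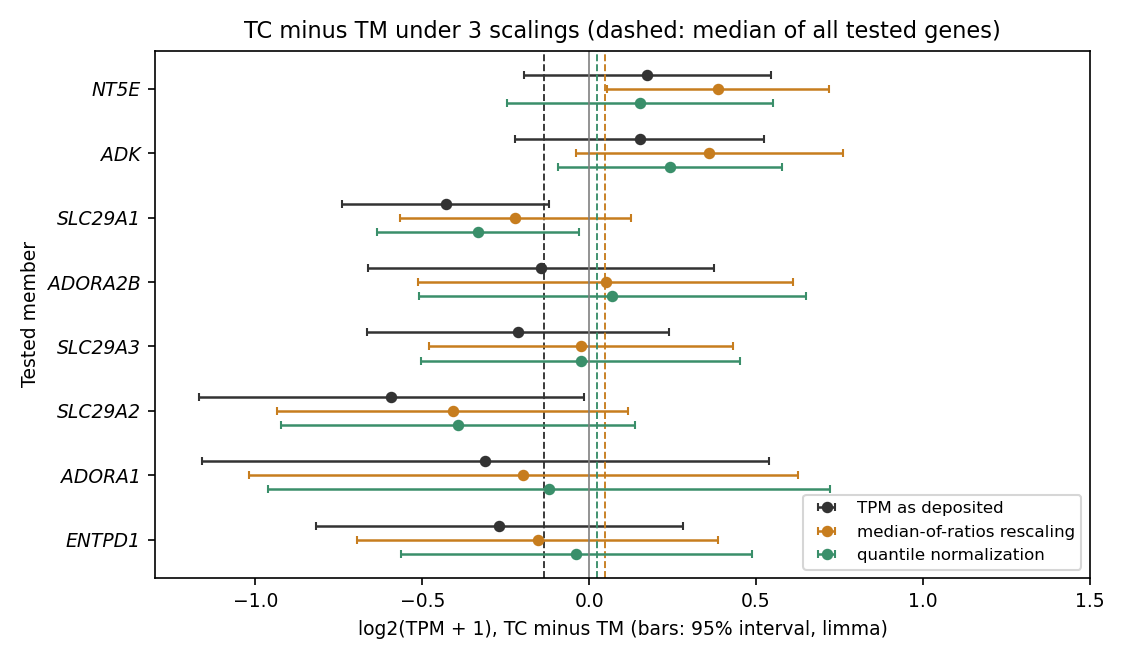
Difference between TC and TM in log2(TPM + 1) for the 8 tested members (points) with 95% intervals from limma (bars), for TPM as deposited, after median-of-ratios rescaling and after quantile normalization; dashed lines mark the median of all tested genes under each. SLC29A1 and SLC29A2 lie left of 0 and NT5E and ADK right of 0 under all 3 scalings, while ADORA2B changes side.

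Ratios of 2 genes in the same sample do not depend on a factor that scales a whole sample, so they were given next. NT5E exceeded SLC29A1 by 12.6, 8.12 and 8.13 times in TC and by 6.33, 5.72 and 6.45 times in TM. Each TC sample was therefore higher than each TM sample in this ratio of RNA levels, and protein was not measured. Among all pairs of genes at 1 TPM or more in every sample, 19.9% had ratios that did not overlap between the groups. The log2 ratio of NT5E to SLC29A1 averaged 3.23 ± 0.366 for the core and 2.62 ± 0.0926 for the margin (SD, n = 3), a difference of 0.61. It was 0.40 without TC replicate 1, which had the highest ratio, and 0.56 to 0.72 when any other sample was left out. NT5E exceeded SLC29A2 by 91.7, 76.7 and 93.5 times in TC and by 49.4, 58.7 and 39.0 times in TM, with a difference of 0.85 on the log2 scale. The ratio of SLC29A1 to ADK was 0.754, 0.936 and 0.647 for the core and 1.01, 1.21 and 1.28 for the margin. SLC29A1 was thus below ADK in every TC sample and above it in TM replicates 2 and 3, while TM replicate 1 was nearly a tie (77.3 against 76.8 TPM). For SLC29A2 to ADK the ratio was 0.104, 0.0991 and 0.0562 for the core and 0.129, 0.117 and 0.212 for the margin.

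By contrast, NT5E and ADK kept a similar balance, with ratios of 9.51, 7.60 and 5.25 for the core and 6.38, 6.90 and 8.28 for the margin. The ratio of SLC29A1 to SLC29A2 overlapped as well (7.27, 9.45 and 11.5 for the core and 7.80, 10.3 and 6.04 for the margin), as did SLC29A3 to SLC29A1 (0.144, 0.129 and 0.161 for the core and 0.129, 0.107 and 0.143 for the margin). NT5E exceeded ENTPD1 by 385 to 766 times in TC and by 304 to 420 times in TM, and ADORA2B exceeded ADORA2A by 15.6 to 45.5 times and 9.28 to 32.5 times and ADORA1 by 5.62 to 23.1 times and 4.49 to 11.2 times, so that these groups overlapped. Of the 15 pairs among the 6 members with at least 1 TPM in every sample, 6 did not overlap between TC and TM (40.0%), and each of the 6 held an SLC29 gene, as did 12 of all 15 pairs. The remaining pairs were SLC29A2 to ADORA2B, whose groups met at 0.688, and SLC29A3 to ADK. Among all pairs of the 11964 genes at that level, 19.9% did not overlap. The pairs share genes and are not independent, so this is a description, and the ratios of NT5E to SLC29A2 and of SLC29A1, SLC29A2 and SLC29A3 to ADK and of SLC29A2 to ADORA2B were singled out after the values were seen.

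**Figure D3:**
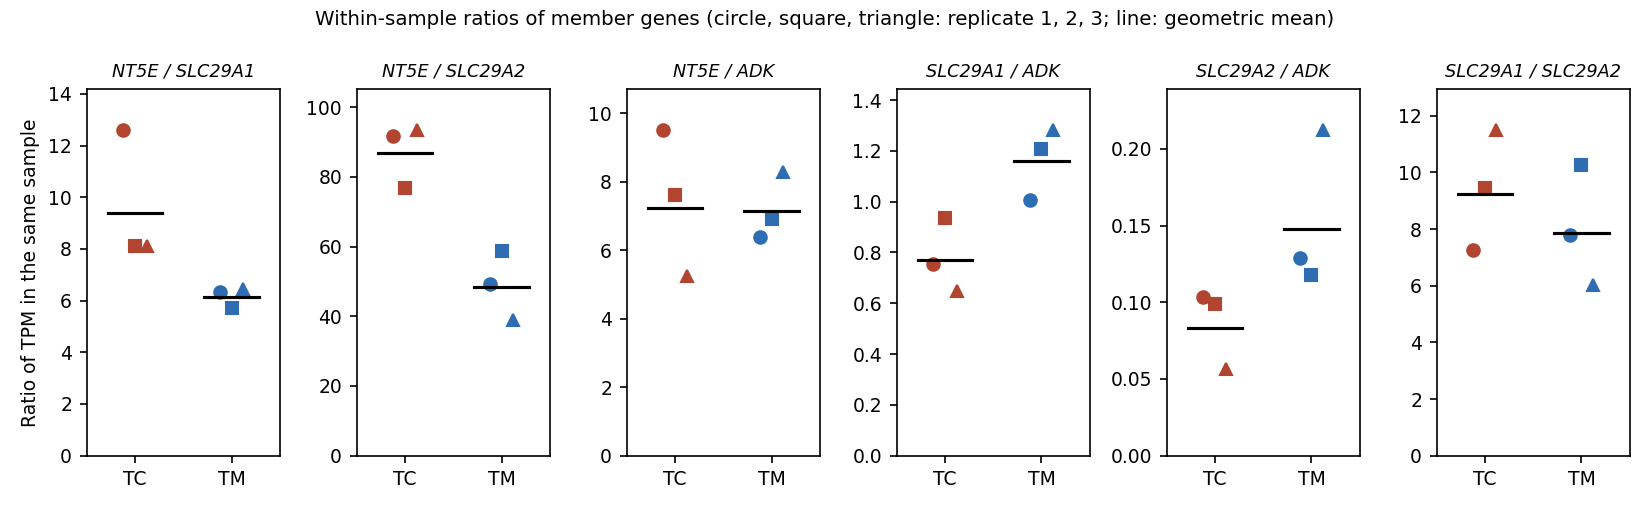
Ratio of the TPM of 2 members in the same sample (linear axes from 0) for TC (red) and TM (blue), with the replicate number shown by the symbol and the geometric mean by a line. The groups separate where NT5E or ADK is set against SLC29A1 or SLC29A2, and overlap for NT5E to ADK and for SLC29A1 to SLC29A2.

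The promoters of NT5E and SLC29A1 are shown because these were the most abundant members on the 2 sides of the ratio that separated TC from TM, and because the study examined SP1, which binds GC boxes, as a factor that responds to inosine. Promoter sequence from RefSeq (GRCh38.p14) was found for 7 of the 10 members. Each line gives the 250 bases before a transcription start on the plus strand of chromosome 6, with GC boxes (GGGCGG on either strand) and HIF cores (ACGTG or GCGTG on either strand) in capitals.
NT5E, chr6:85449833-85450082: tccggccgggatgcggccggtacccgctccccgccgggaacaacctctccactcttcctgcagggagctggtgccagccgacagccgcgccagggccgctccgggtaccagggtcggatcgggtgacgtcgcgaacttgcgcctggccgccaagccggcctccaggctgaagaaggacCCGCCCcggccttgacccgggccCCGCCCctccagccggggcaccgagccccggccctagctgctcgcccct
SLC29A1, first start, chr6:44219365-44219614: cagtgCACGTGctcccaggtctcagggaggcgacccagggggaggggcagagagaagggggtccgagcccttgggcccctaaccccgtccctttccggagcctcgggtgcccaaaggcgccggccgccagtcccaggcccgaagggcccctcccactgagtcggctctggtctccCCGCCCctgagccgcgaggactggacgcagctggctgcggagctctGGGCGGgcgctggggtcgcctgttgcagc
SLC29A1, second start, chr6:44223345-44223594: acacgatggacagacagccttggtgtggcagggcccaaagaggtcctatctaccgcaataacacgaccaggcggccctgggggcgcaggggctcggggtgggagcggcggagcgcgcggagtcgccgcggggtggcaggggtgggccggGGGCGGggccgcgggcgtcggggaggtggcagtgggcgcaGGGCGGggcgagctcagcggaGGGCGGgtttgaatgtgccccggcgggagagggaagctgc

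NT5E held 2 GC boxes and 0 HIF cores in this window. The first start of SLC29A1 held 2 GC boxes and, in a single palindrome read on both strands, 2 overlapping HIF cores, and the second start held 3 GC boxes and 0 HIF cores. A GC box was found in 42.6% and a HIF core in 43.2% of 35116 promoter windows of the same length, so such matches are common. ADORA2B had 2 GC boxes and 1 HIF core, SLC29A3 had 2 and 3, ADORA1 had 2 and 0, and the starts of ADK had 4 and 0, and 2 and 2. Of 5 ENTPD1 starts, 1 held 2 HIF cores and none a GC box. These letters are a description of the windows and carry no information on binding.

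Beyond the members, 95 further genes of the adenosine, inosine and purinergic pathways were followed, of which 55 were tested. At an adjusted p-value under 0.05, 0 were called (smallest limma adjusted p = 0.0679). At an unadjusted p-value under 0.05, 10 were lower and 1 was higher in TC, and the median difference was -0.21, beside 14.2% lower, 1.93% higher and a median of -0.14 over all tested genes. After median-of-ratios rescaling 6 were lower and 3 higher, with a median of -0.029. Of the P2 receptors for extracellular nucleotides 4 were tested, and all 4 had differences below 0 as deposited, as had 9283 of all 13861 tested genes. Under median-of-ratios and quantile scaling 3 of the 4 were below 0, since P2RX4 turned to 0.087 and 0.094. The lowest unadjusted p-value belonged to P2RY11, an ATP receptor, at 6.08, 6.74 and 5.11 TPM across the core and 14.4, 15.5 and 13.1 across the margin (log2 difference -1.14, SE 0.19, limma adjusted p = 0.0679). Its groups were far apart, but the gene shares sequence with the readthrough gene PPAN-P2RY11, which was at 8.01, 6.59 and 5.27 TPM across the core and 6.78, 8.66 and 27.2 across the margin. P2RY11 also overlaps PPAN on the same strand (18.9 to 44.1 TPM) and EIF3G on the opposite strand (309 to 413 TPM). The division of reads among these genes is uncertain, and whether the counting used strand was not given. P2RX4 (-0.11) and P2RY2 (-0.23), the latter a receptor for ATP and UTP, had standard errors of 0.18 and 0.22 and did not reach the threshold.

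Of 8 tested ectoenzyme relatives 2 were lower at an unadjusted p-value under 0.05. ENTPD4, a nucleotidase of the Golgi and lysosomes, was at 7.56, 4.66 and 3.96 TPM across the core and 13.1, 13.7 and 14.2 across the margin (log2 difference -1.24, SE 0.24, limma adjusted p = 0.0843), and ENTPD6 had a log2 difference of -0.63 (limma adjusted p = 0.0999). Both had TC values wholly below TM. ENTPD4 overlaps LOXL2 on the same strand (70.2 to 89.7 TPM), so its share of the reads is uncertain. SLC17A9, the vesicular transporter that loads ATP for release, was at 16.5, 21.6 and 19.8 TPM across the core and 32.2, 40.8 and 34.2 across the margin (log2 difference -0.86, SE 0.17, limma adjusted p = 0.0843), and was the 1 of 8 tested ATP release genes at that threshold. P2RY11, ENTPD4, SLC17A9 and ENTPD6 kept this direction, an unadjusted p-value under 0.05 and separate groups after median-of-ratios rescaling (-0.95, -1.06, -0.65 and -0.42). They were picked by low p-values in the same samples, so this is not independent support. Under this scaling 6.7% of all tested genes were lower at that threshold, and 1350 of 13861 had every TC value below every TM value.

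Of 19 tested receptor coupling genes 16 had differences below 0, with a median of -0.27, and no test set them apart from the general shift of all genes given above. At an unadjusted p-value under 0.05 these were the adenylyl cyclases ADCY7 (-0.83), ADCY6 (-0.74) and ADCY3 (-0.55), which make cyclic AMP on signals from Gs-coupled receptors, and the G protein subunit GNA11 (-0.37). After median-of-ratios rescaling 12 of 19 were lower and ADCY7 and ADCY6 kept that threshold. The intracellular adenosine and inosine enzymes differed in direction, with 5 of 14 lower and 9 higher (median 0.021). PNP, which splits inosine to hypoxanthine, was at 162, 154 and 205 TPM across the core and 253, 245 and 191 across the margin (log2 difference -0.40, limma adjusted p = 0.273), so that TC replicate 3 lay above TM replicate 3. AHCYL1, a relative of the enzyme that releases adenosine from S-adenosylhomocysteine, was at -0.38 (limma adjusted p = 0.268). PNP was at -0.19 (limma unadjusted p = 0.332) and AHCYL1 at -0.17 (limma unadjusted p = 0.222) under median-of-ratios scaling, so neither kept the threshold there. After quantile normalization PNP kept it, at -0.39 (limma unadjusted p = 0.0192), and AHCYL1 did not (-0.26, limma unadjusted p = 0.0679). AK4, a mitochondrial adenylate kinase, was the 1 gene higher in TC, at 45.1, 44.6 and 32.3 TPM against 29.97, 30.8 and 31.0 (log2 difference 0.38, limma adjusted p = 0.307). ADA was at 5.30, 6.14 and 5.81 TPM across the core and 5.61, 5.11 and 6.07 across the margin (0.034), NT5C2, which forms inosine from IMP in the cytosol, had a difference of -0.13, SLC29A4 one of 0.12 and DPP4, which anchors ADA at the cell surface, was at 0.08 to 1.14 TPM and not tested. Of the other transporters 2 of 4 were tested, and 0 reached the threshold.

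**Figure D4:**
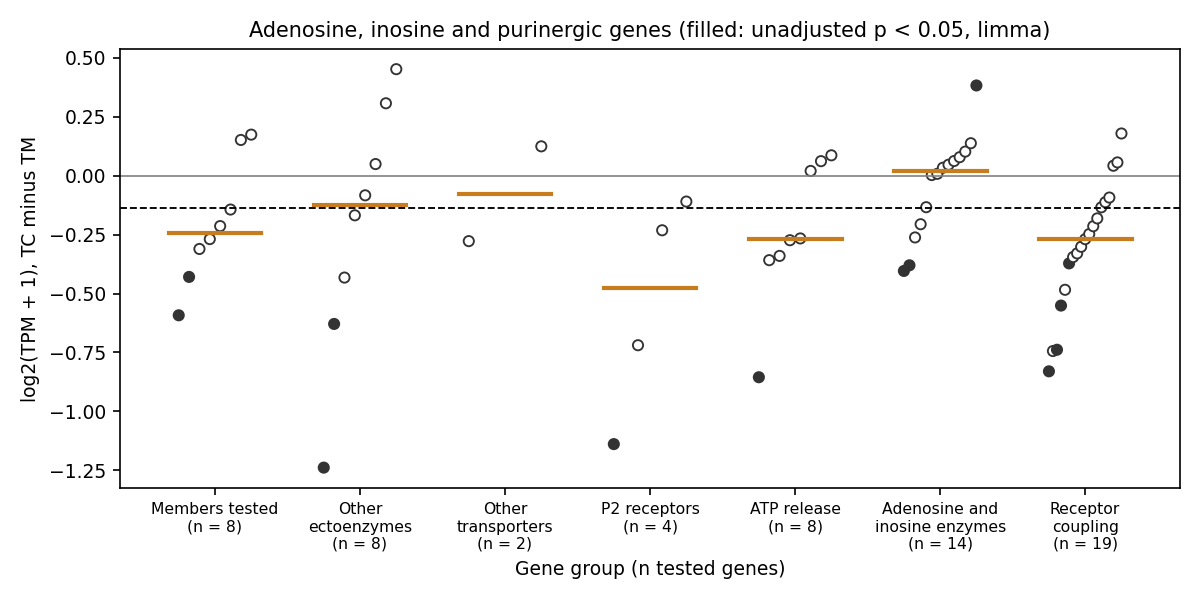
Difference between TC and TM in log2(TPM + 1) for the tested members and 6 groups of related genes, 1 point per gene (filled where the unadjusted limma p-value is under 0.05), with orange lines for group medians and a dashed line for the median of all tested genes (-0.14). P2RY11 and ENTPD4 have the lowest values, and the adenosine and inosine enzymes are the group whose median lies above 0.

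Genes induced by HIF were listed beside the members, since NT5E, ADORA2B and SLC29A1 are known to respond to hypoxia. Of 15 HIF target genes all were tested, 12 had higher values in TC and 3 lower, 0 were called and 3 were higher at an unadjusted p-value under 0.05 (median 0.28). As deposited, 4578 of all 13861 tested genes had higher values in TC, and 1.93% at that threshold. TM replicate 3 had the highest level of all 6 samples in 6 of the 15 genes, VEGFA, NDRG1, EGLN3, P4HA1, ENO2 and KDM3A (named after their values were seen). TC replicate 2 was the highest in 6 others and TC replicate 1 in 3. In 3 of the 15 every TC value was above every TM value, against 3.28% of all tested genes. ADORA2B was also highest in TM replicate 3. The 3 genes at the threshold were BNIP3 (0.60), PGK1 (0.33) and ANKRD37 (0.75), with limma adjusted p-values of 0.168, 0.232 and 0.283. NT5E (limma adjusted p = 0.659) had a difference of the same sign as most of the list. SLC29A1 (limma adjusted p = 0.175) had the opposite sign, and ADORA2B had no stable sign. The part of hypoxia in the members' values was not tested.

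Finally, the genes whose levels most resembled those of the 3 most abundant members over the 6 samples were listed, by Pearson correlation of log2(TPM + 1), as a description. They were CAAP1 (0.997), COPB1 (0.993) and DYNLT2B (0.991) for NT5E, RGS10 (0.995), GSTO2 (0.980) and NUDT1 (0.979) for ADK, and PDK2 (0.995), LRRC20 (0.992) and PLEKHM2 (0.990) for SLC29A1. With 6 points such values are common, since 234, 69 and 396 of the tested genes reached 0.9 with NT5E, ADK and SLC29A1. PDK2, an inhibitor of pyruvate dehydrogenase, was at 13.4, 19.6 and 13.99 TPM across the core and 25.7, 22.9 and 22.6 across the margin, separate between the groups as SLC29A1 was, while CAAP1, at 20.8, 16.1 and 13.04 TPM across the core and 15.2, 12.8 and 14.6 across the margin, followed the order of samples seen for NT5E.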

How the data were processed

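Per the labels and the study's methods, TruSeq libraries of total RNA were sequenced with paired-end reads. The authors trimmed reads with SeqPrep and Sickle, aligned them with HISAT2 (hg38 in the submitters' processing notes), assembled them with StringTie and quantified genes with RSEM. The authors deposited 1 matrix of TPM. Versions, the annotation release and any removal of mouse reads were not given in the sources used here. The columns summed to 1000000, except TM replicate 3 (994381). TPM keeps no depth, so the study's count model was not run and precision rests on the spread between samples, which may be partly technical.

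Symbols were matched to 60401 of 60671 annotated genes, and 259 assembled loci were left out. The number of other value columns was 0. Values were transformed as log2(TPM + 1). Genes that reached 1 TPM in 3 or more samples were fitted by limma 3.58.1 in R 4.3.3 (TC minus TM, mean-variance trend, two-sided, no covariate), with Benjamini-Hochberg adjustment over 13861 genes, and the fit was tested on simulated data. The log2(TPM + 1) scale understates changes of low genes. Positions are from GENCODE v29, which holds 96.3% of the annotated genes. A gene's value sums its transcripts, so no exon or intron is singled out.

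The genes named are all members, pathway genes at an unadjusted p-value under 0.05, 8 pathway genes fixed by name (PNP counts under both), 3 HIF targets and 3 genes most like each of the 3 most abundant members. SLC28A1, SLC28A2, ENPP1 and the overlapping genes were named outside this rule, after their values were seen. The members and lists were chosen with earlier results of these data known. The skeletal muscle list had 15 genes, of which 14 were matched. Alternatives were a pseudocount of 0.1, no filter, a mean of at least 5 TPM, quantile and median-of-ratios scaling, TPM without mitochondrially encoded genes or rescaled to 1000000, the replicate number as a block, limma without trend or in robust form, leaving out each sample, and, chosen after seeing the data, leaving out TM replicates 1 and 2 together.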

Additional observations from a re-analysis of the deposited data

How the results depend on the processing

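Under all 17 alternatives 0 members were called, and NT5E, ENTPD1, SLC29A1, SLC29A2, SLC29A3 and ADK kept the sign of their difference wherever they were fitted; ENTPD1 and ADORA1 could not be fitted at a mean of at least 5 TPM. The number of members at an unadjusted p-value under 0.05 (2) was 1 without a filter, at a mean of at least 5 TPM, after quantile normalization, after median-of-ratios rescaling (NT5E in place of the transporters), with the replicate block and without TM replicates 1 and 2, and 1 to 2 when a sample was left out. Members without overlap (2) numbered 1 under quantile and median-of-ratios scaling, 2 to 4 when a sample was left out, and 6 without TM replicates 1 and 2, where a single TM sample makes separation easy. All genes called (19) numbered 7 with a pseudocount of 0.1, 1 without a filter, 4 and 6 under quantile and median-of-ratios scaling, 1 with the replicate block, 12 without trend, 47 in robust form, 195 without TM replicates 1 and 2 (the remaining TM sample is assumed to vary like TC) and 1 to 17 when a sample was left out. Pathway genes at an unadjusted p-value under 0.05 (11) numbered 7 without trend, 6 without TM replicates 1 and 2 and 7 to 13 when a sample was left out. Of genes at an unadjusted p-value under 0.05, 88.0% were lower in TC as deposited, 49.6% after median-of-ratios rescaling and 58.5% after quantile normalization. The cause of these shifts was not tested.

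Signs turned for ADORA1 without TC replicate 3 (0.0023), ADORA2B after quantile normalization (0.069), median-of-ratios rescaling (0.050) or without TM replicate 3 (0.059), SLC29A4 without TC replicate 1 (-0.047), TM replicate 1 (-0.12) or both TM replicates 1 and 2 (-0.45), P2RX4 (0.094 and 0.087) and NT5C2 (0.032 and 0.072) after quantile and median-of-ratios scaling, and ADA without mitochondrially encoded genes (-0.010), TC replicate 2 (-0.0077), TM replicate 2 (-0.020) or TM replicates 1 and 2 (-0.069). The log2 ratio of NT5E to ADK (0.021) was -0.18, -0.014, -0.061 and -0.0042 without TC replicate 1, TC replicate 2, TM replicate 1 and TM replicate 2, and that of ADORA2B to ADORA1 was -0.19 without TC replicate 3. When each sample was left out in turn the ranges were -0.59 to 0.0023 for ADORA1, -0.27 to 0.059 for ADORA2B, -0.12 to 0.41 for SLC29A4, -0.020 to 0.085 for ADA, -0.18 to 0.25 for NT5E to ADK and -0.19 to 0.83 for ADORA2B to ADORA1.

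Deviations from the group means of same-numbered samples correlated at 0.21, -0.12 and -0.16. The highest value, 0.32, joined TC replicate 3 to TM replicate 2. With 3 samples per group, these values cannot show whether same-numbered samples came from the same mouse. With the replicate block SLC29A1 had a limma unadjusted p-value of 0.0314, SLC29A2 one of 0.0696, GNA11 one of 0.0611, AK4 one of 0.0723 and PNP one of 0.0886.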
